A study of Rattus norvegicus and Mus musculus with 3 samples.

Results

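The proteasome genes described here are those whose symbol, with case ignored, is Psm followed by a letter from a to g and a number. The rule named 48 genes, the same 48 in all 3 tables, out of 30438 genes listed for each rat and 34714 for the mouse. They comprise 5 subunits that interferon induces (Psmb8, Psmb9, Psmb10, Psme1 and Psme2) and 43 other members, called constitutive below, a term that here also takes in the testis form Psma8 and the thymus form Psmb11. The rule uses no measured value.

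The series profiled hippocampal RNA for work on models of Alzheimer's disease and vascular dementia, and 3 libraries are described here, 1 per group. The wild-type mouse library is labelled as 6 months old, as belonging to the 3xTg-AD model and as WT in genotype (the transgenic counterpart was not analysed here). The 2VO rat library and the Sham rat library are from animals of 3 to 4 months, both WT in genotype. The abbreviation 2VO usually stands for permanent closure of both carotid arteries, done to reduce blood flow to the brain, and Sham for surgery without the closure. The labels do not say the sex, the rat strain, the time since surgery or whether animals were pooled. The deposited values are a normalized expression signal per gene, called units below. Neither the unit nor the depth is stated, nor whether gene length was divided out, so values of different genes are set against each other only within a library, to compare the libraries. The values summed to 268889 in the mouse, 333941 in 2VO and 325636 in Sham. With 1 library per group there is no replicate check and no test: every difference is a difference between libraries, not shown to be one between conditions. Markers of hippocampal neurons were present in each library, all 9 of the list reaching a mean of at least 1 unit in the rats.

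The proteasome is the barrel-shaped protease that degrades ubiquitin-tagged proteins in the cytosol and nucleus. Its 20S core has outer rings of alpha subunits, which gate the entrance, and inner rings of beta subunits, some of which carry the active sites. The 19S cap binds ubiquitin chains, removes them and unfolds the substrate with a ring of ATPases. Interferons induce the replacement catalytic subunits Psmb8, Psmb9 and Psmb10 and the activator subunits Psme1 and Psme2. The resulting immunoproteasome is best known for making peptides for presentation on MHC class I, and in brain it is associated mostly with glia.

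In the 2VO library 4 of the 5 interferon-induced genes were lower than in the Sham library, as were 41.3% of all measured genes, while most constitutive genes were slightly higher. Differences are given as log2((2VO + 1)/(Sham + 1)), the log2 ratio, over the 13550 genes whose rat values average 1 unit or more, called measured below. Adding 1 unit understates the difference of low genes. Of the members 46 were measured. The constitutive members had a median log2 ratio of 0.15 over 41 genes, and the interferon-induced members one of -0.31 over 5, beside 0.04 over all measured genes. Higher values in 2VO were seen for 33 of the 41 constitutive members, or 80.5%, and for 58.7% of all measured genes. With the libraries scaled to equal upper quartiles these became 26 of 41, or 63.4%, and 44.4%, so the number of constitutive members on the higher side rests partly on the scaling. Under that scaling 28 of the 41 lay above the all-gene median, and 29 of 41 did so without it, where by definition 50% of genes do.

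Differences of single members were small. Across all measured genes 0.967% were at least 1.5-fold lower in 2VO and 1.51% at least 1.5-fold higher. Among the members 1 was at least 1.5-fold lower, Psmb8, and 0 were at least 1.5-fold higher. At 1.2-fold, a limit added after the data were seen, 10 of the 46 members were higher, or 21.7%, where 12.6% of all genes were, and 4 were lower, or 8.70%, where 6.81% of all genes were. Under upper-quartile scaling the balance turned: 5 members were higher, or 10.9%, beside 7.92% of all genes, and 6 were lower, or 13.0%, beside 10.9% of all genes. Without that scaling the 10 higher ones were all constitutive, and 3 of the 4 lower ones were interferon-induced, the other being Psmg3. The central 95% of all log2 ratios ran from -0.41 to 0.50, and Psmb8 was the 1 member outside it.

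**Figure D1:**
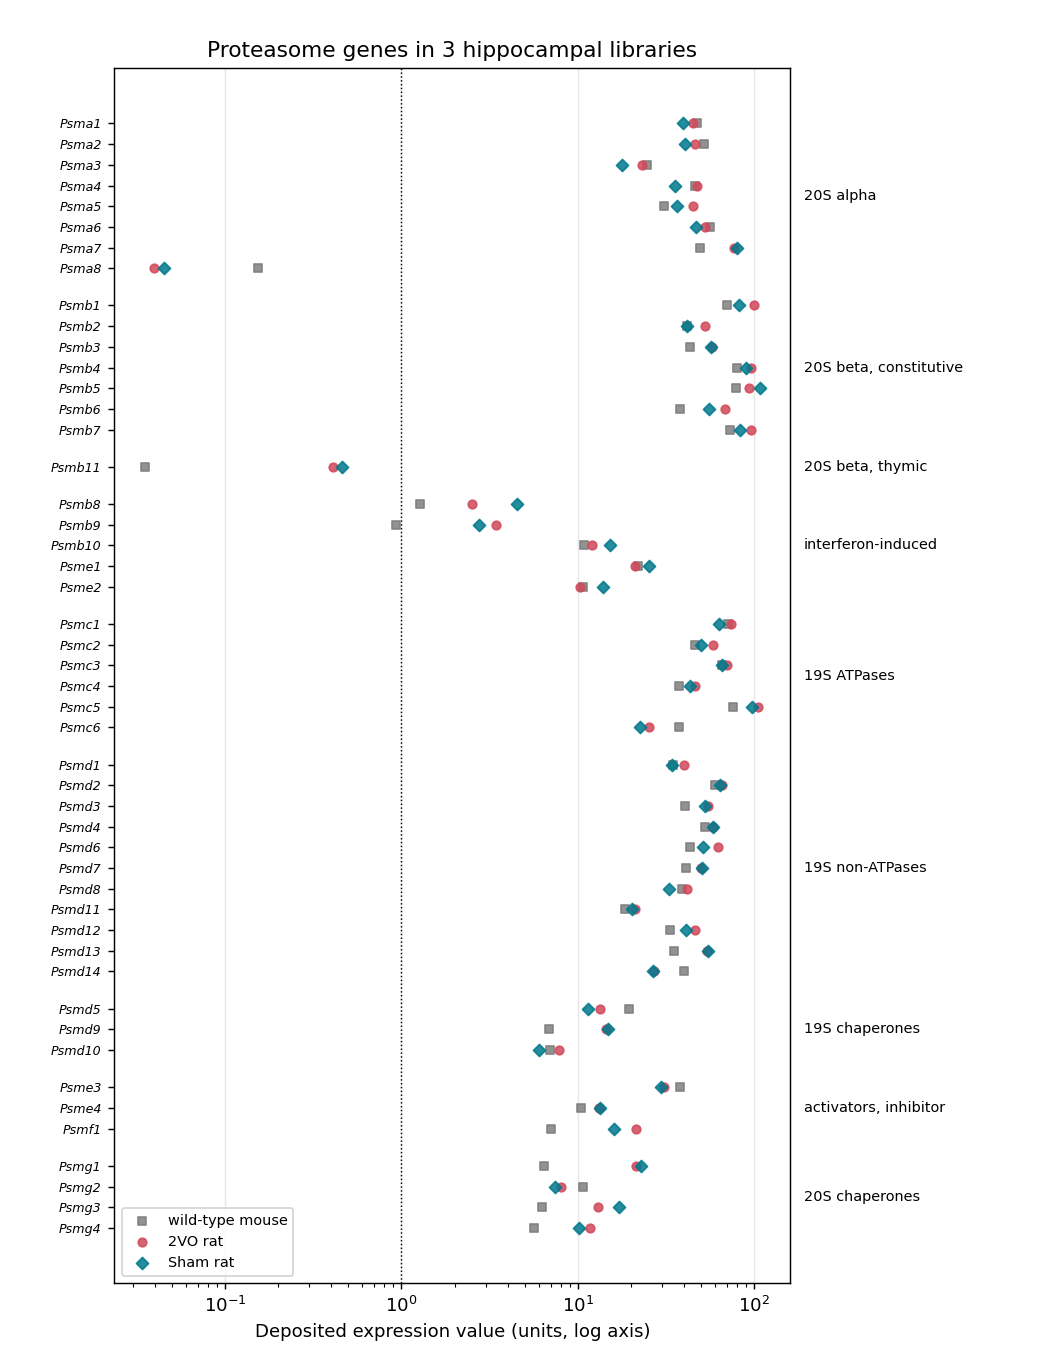
Deposited expression value in units on a log axis for each of the 48 genes, grouped by role, in the wild-type mouse (squares), the 2VO rat (circles) and the Sham rat (diamonds), 1 library each; the dotted line marks 1 unit. The 2 rats nearly coincide for most genes, Psmb8 lies apart in all 3 libraries, and Psma8 and Psmb11 lie below 1 unit throughout.

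**Figure D2:**
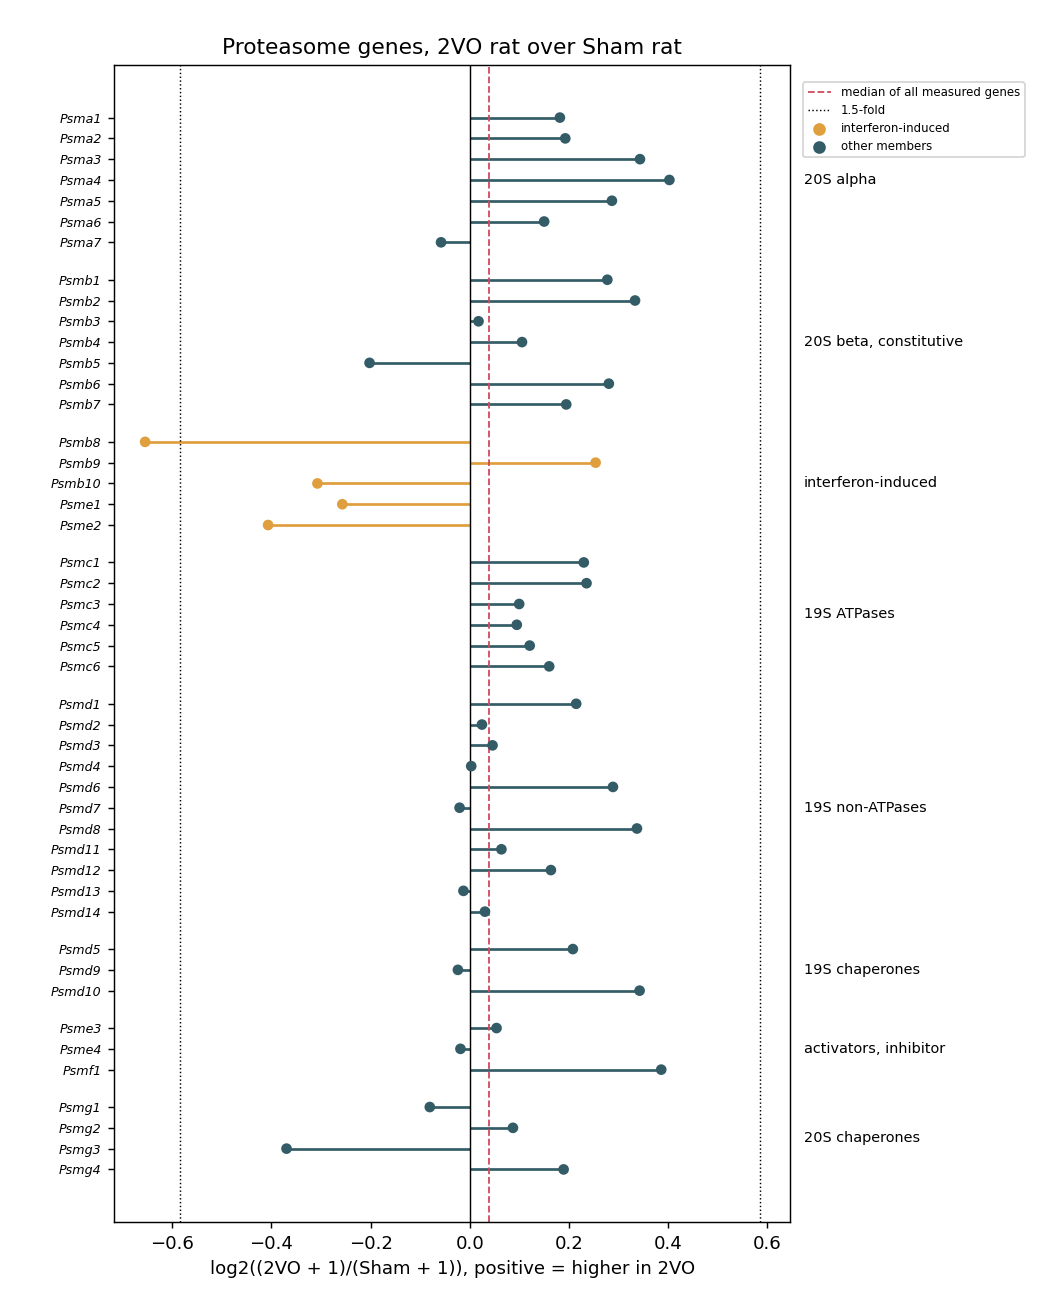
Log2((2VO + 1)/(Sham + 1)) for the 46 measured members by role; the dashed line is the median of all measured genes at 0.04 and the dotted lines mark 1.5-fold. Psmb8, Psmb10, Psme1 and Psme2 point to the left, towards lower values in 2VO, and Psmb9 to the right, while all 6 ATPases point to the right.

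Psmb8 encodes the interferon-induced form of the chymotrypsin-like subunit. It was 2.51 units in 2VO, against 4.53 in Sham, and 1.27 in the mouse. Its log2 ratio of -0.65 was the lowest of any measured member. Of the 2516 genes with a mean within 1.5-fold of its own, 1.15% had a lower ratio. Because the gene is low, its ratio depended on the amount added before the log: it was -0.79 with 0.25 units and -0.39 with 4 units.

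Psmb10, the interferon-induced form of the trypsin-like subunit, was 12.05 units in 2VO, against 15.1 in Sham, a log2 ratio of -0.31. In the mouse it was 10.9. Psme1 and Psme2 form the cytosolic activator that caps the core in place of the 19S complex and opens its gate. Psme1 was 21.1 units in 2VO, against 25.4 in Sham, a log2 ratio of -0.26, and Psme2 was 10.2 units in 2VO, against 13.9 in Sham, a log2 ratio of -0.41. Both genes of the activator were lower in 2VO, Psme2 by the larger amount. Among genes of like level, within 1.5-fold of each mean, 3.36% had a lower ratio than Psmb10, 5.56% than Psme1 and 1.86% than Psme2.

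Psmb9, whose product replaces the caspase-like subunit encoded by Psmb6, went the other way. It was 3.46 units in 2VO, against 2.74 in Sham, a log2 ratio of 0.25. Of 2370 genes of like level 84.1% had a lower ratio, so it lay well inside the background. Psmb9 lies head to head with Tap1, which encodes one chain of the transporter that carries proteasome products into the endoplasmic reticulum. In the RefSeq table for GRCr8 the pair is on opposite strands with 457 bases between the starts. Tap1 was 2.43 units in 2VO, against 1.80 in Sham, a log2 ratio of 0.30. Both genes of the divergent pair were therefore higher in 2VO, while Psmb8, the next gene beyond Tap1, was lower. Tap2, on the far side of Psmb8, was 2.75 units in 2VO, against 2.72 in Sham. RT1-DMb, an MHC class II gene on the far side of Psmb9, was 2.45 units in 2VO, against 4.55 in Sham, a log2 ratio of -0.69, past 1.5-fold and lower than that of Psmb8, so neighbours in this stretch of the MHC did not share a direction. These neighbours are named for their position, after their values were seen.

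**Figure D3:**
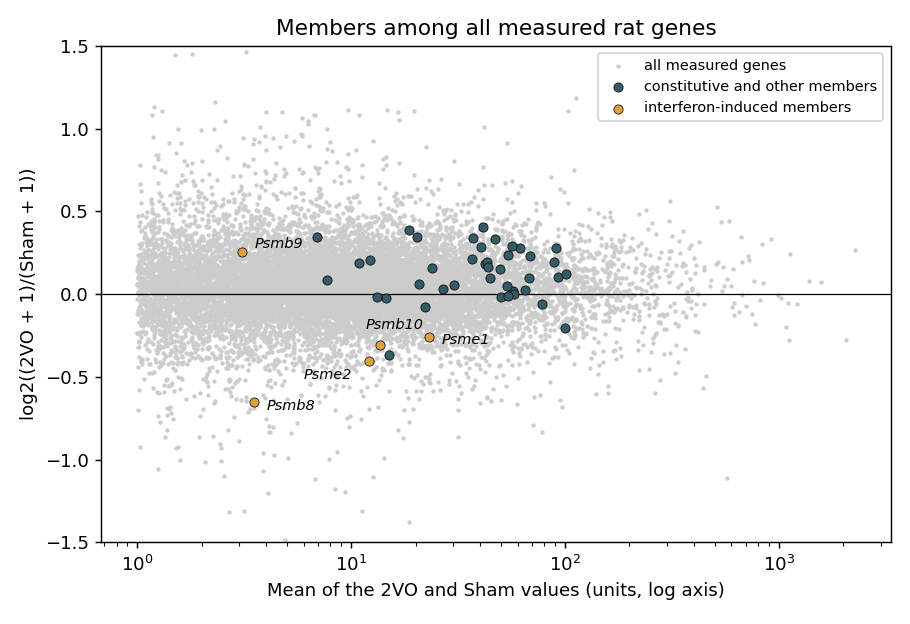
Log2 ratio of 2VO to Sham against the mean of the 2 rat values in units on a log axis, for all 13550 measured genes (grey; 17 lie beyond the plotted range), the constitutive members (dark) and the interferon-induced members (orange, named). The constitutive members sit within the grey band and mostly above 0; Psmb8 lies at its lower edge at -0.65 and Psmb9 above 0 at 0.25.

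Promoters are shown for the interferon-induced genes and for Psmb5, Psmb6 and Psmb7. These 3 encode the constitutive catalytic subunits that those of Psmb8, Psmb9 and Psmb10 replace. Each stretch holds 150 bases before and 10 bases after the annotated start, from RefSeq on GRCr8, given on the gene's own strand. The stretches are chr20:4657022-4657181 (minus strand) for Psmb8, chr20:4668850-4669009 (plus strand) for Psmb9 and chr19:50743283-50743442 (minus strand) for Psmb10. Psme1 is at chr15:33038821-33038980 (plus strand) and Psme2 at chr15:33052742-33052901 (minus strand). Psmb5 is at chr15:32047370-32047529 (minus strand), Psmb6 at chr10:55737738-55737897 (plus strand) and Psmb7 at chr3:42827461-42827620 (minus strand). Capitals mark matches to the core of the interferon-stimulated response element, the site of interferon regulatory factors (GAAA 2 times on 1 strand with 2 bases of any kind between), and to an antioxidant response element, the kind of site bound by Nrf1 and Nrf2 (TGACNNNGC), each on either strand.
Psmb8: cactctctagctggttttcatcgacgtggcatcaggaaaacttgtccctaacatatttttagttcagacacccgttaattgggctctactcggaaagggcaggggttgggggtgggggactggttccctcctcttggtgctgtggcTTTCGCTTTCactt
Psmb9: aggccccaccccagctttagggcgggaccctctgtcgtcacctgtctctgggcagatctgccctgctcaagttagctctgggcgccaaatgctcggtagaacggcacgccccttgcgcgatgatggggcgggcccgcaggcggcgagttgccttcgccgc
Psmb10: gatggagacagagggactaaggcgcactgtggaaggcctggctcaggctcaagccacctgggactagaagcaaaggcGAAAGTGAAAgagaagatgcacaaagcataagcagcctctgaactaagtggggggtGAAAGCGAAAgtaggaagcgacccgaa
Psme1: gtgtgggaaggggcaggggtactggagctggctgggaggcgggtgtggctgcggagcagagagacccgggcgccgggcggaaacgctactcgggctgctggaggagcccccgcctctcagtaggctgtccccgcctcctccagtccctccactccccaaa
Psme2: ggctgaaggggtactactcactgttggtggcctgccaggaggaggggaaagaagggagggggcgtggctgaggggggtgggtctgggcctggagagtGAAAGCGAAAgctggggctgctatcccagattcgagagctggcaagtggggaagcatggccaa
Psmb5: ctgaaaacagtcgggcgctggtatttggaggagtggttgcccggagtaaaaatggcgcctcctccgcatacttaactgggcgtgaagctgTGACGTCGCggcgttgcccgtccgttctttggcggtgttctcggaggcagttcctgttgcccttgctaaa
Psmb6: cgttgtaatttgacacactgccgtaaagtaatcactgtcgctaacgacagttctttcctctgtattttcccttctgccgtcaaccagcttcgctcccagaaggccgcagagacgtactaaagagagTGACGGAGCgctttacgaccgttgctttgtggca
Psmb7: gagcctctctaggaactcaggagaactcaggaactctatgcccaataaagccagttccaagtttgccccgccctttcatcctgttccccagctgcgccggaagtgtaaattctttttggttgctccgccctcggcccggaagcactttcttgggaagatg

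Over the full windows of 250 bases before to 50 after the start, 43 of the 48 members had a sequence in the table. The interferon element core was found in 3 of the 5 interferon-induced genes: once in Psmb8, where its first base is 4 bases before the start, 2 times in Psmb10 and once in Psme2. It was also found in 4 constitutive members, Psma4, Psmb3, Psmd7 and Psmg4, which makes 16.3% of members, beside 3.92% of all 33469 promoter windows. The 3 interferon-induced genes with a match were lower in 2VO, as was Psme1, which has none, and Psmb9 has none in this window. The 4 constitutive members with a match did not share that direction. Psma4, Psmg4 and Psmb3 had log2 ratios of 0.40, 0.19 and 0.02, and Psmd7 had one of -0.02. The interferon-gamma activated site (TTCNNNGAA) was found in Psmb8, outside the printed stretch, and in 3 constitutive members, beside 8.87% of all windows. The antioxidant element was found in 8 members, or 18.6%, beside 12.1% of all windows; among them are Psmb5 and Psmb6, and 0 of the 5 interferon-induced genes. The CCAAT box, the site of the factor NF-Y, was found in 21 members, or 48.8%, beside 37.5% of all windows. CCAAT was searched as spelled, on both strands; the searches were counted separately, and matches of different motifs could overlap. Each member was counted by a single window, while the share of all windows was taken over every full-length window, not reduced to a single window per gene. A match is a stretch of letters and not a measured binding site.

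Setting each replacement subunit over the one it displaces removes scaling between libraries, and gene length cancels between the rats. The value of Psmb8 was 2.70% of that of Psmb5 in 2VO, against 4.23% in Sham. The value of Psmb10 was 12.7% of that of Psmb7 in 2VO, against 18.2% in Sham. For Psmb9 over Psmb6 the share was 5.09% in 2VO, against 4.92% in Sham. On the log2 scale with 1 unit added the differences, 2VO minus Sham, were -0.45 for Psmb8 over Psmb5, -0.50 for Psmb10 over Psmb7 and -0.03 for Psmb9 over Psmb6. So 2 of the 3 replacement pairs were lower in 2VO and 1, Psmb9 over Psmb6, was nearly equal, running from -0.12 with 4 units added to 0.05 with 0 units. The Psmb8 difference was -0.19 with 4 units added and -0.65 with 0 units. Against Psme3, the activator subunit that interferon does not induce, Psme1 stood at 68.2% in 2VO and 85.4% in Sham, and Psme2 at 33.1% in 2VO and 46.7% in Sham. In the mouse Psmb8 stood at 1.62% of Psmb5, Psmb9 at 2.47% of Psmb6 and Psmb10 at 14.9% of Psmb7; gene lengths need not cancel across species, so these are not compared with the rats.

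**Figure D4:**
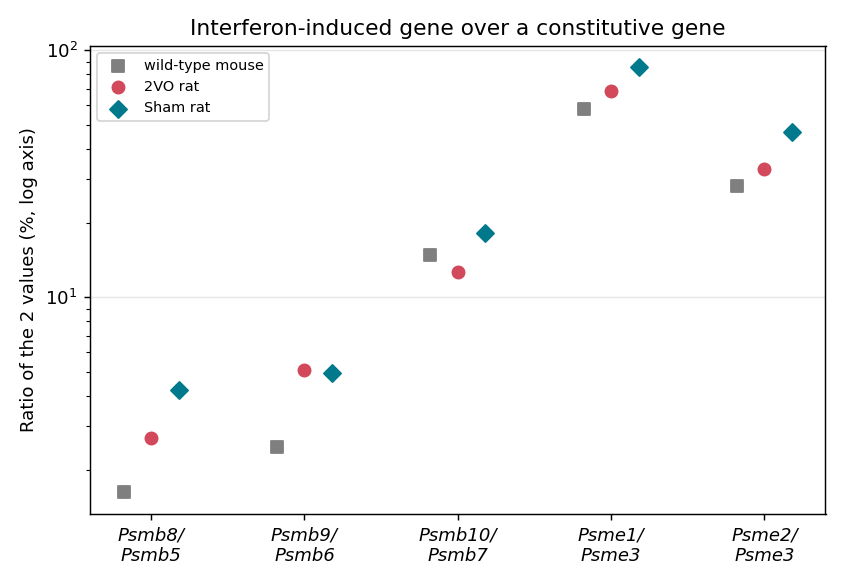
Value of an interferon-induced gene as a percentage of a constitutive gene's value (log axis) in the wild-type mouse (squares), the 2VO rat (circles) and the Sham rat (diamonds), 1 library each. 2VO lies below Sham in every pair but Psmb9 over Psmb6, where the shares are 5.09% and 4.92%.

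The 7 constitutive beta subunits include the active sites. Psmb5, the chymotrypsin-like subunit, was 93.1 units in 2VO, against 107 in Sham, a log2 ratio of -0.20, and was the 1 lower member of this group (2 of 7 were lower under upper-quartile scaling). Its displacing partner Psmb8 was also lower, so their quotient differed by less than Psmb8 alone. Psmb6, the caspase-like subunit, was 67.8 units in 2VO, against 55.7 in Sham, and Psmb7, the trypsin-like subunit, was 95.2 in 2VO, against 83.1 in Sham. The structural subunits Psmb1 and Psmb2 had log2 ratios of 0.28 and 0.33, with Psmb2 at 52.8 units in 2VO, against 41.7 in Sham. Psmb3 and Psmb4 were closer, at 57.7 and 96.2 units in 2VO, against 57.0 and 89.4 in Sham. The group median was 0.19, beside 0.04 for all measured genes, of which 41.3% were lower in 2VO. The thymus form Psmb11 was 0.411 units in 2VO, against 0.459 in Sham, and was not measured under the rule of a mean of 1 unit.

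Of the alpha subunits 7 of 8 were measured, with a median log2 ratio of 0.19. Of these 6 were higher in 2VO, where 58.7% of all measured genes were. Psma4 had the highest ratio of all members, 0.40, at 47.2 units in 2VO, against 35.4 in Sham. Psma3, whose tail helps to close the gate, was 23.0 units in 2VO, against 17.9 in Sham, a log2 ratio of 0.34. Psma5 was 44.7 in 2VO, against 36.4 in Sham. The other higher members, Psma1, Psma2 and Psma6, had ratios between 0.15 and 0.19. Psma7 was the lower one, at 76.5 units in 2VO, against 79.7 in Sham. These genes code for subunits present in equal number in each core, yet their ratios spread from -0.06 to 0.40 between the 2 libraries. The testis form Psma8 was 0.0398 units in 2VO, against 0.0452 in Sham.

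The ATPases of the 19S base, Psmc1 to Psmc6, had the narrowest range of ratios among the groups. All 6 were higher in 2VO, where 58.7% of all measured genes were, with ratios from 0.09 to 0.24 and a median of 0.14. All 6 also stayed above 0 under upper-quartile scaling, where 44.4% of all measured genes did. Psmc5 was 105 units in 2VO, against 96.7 in Sham, and Psmc2 was 58.6 in 2VO, against 49.6 in Sham. None of the 6 was 1.2-fold apart.

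Among the 11 non-ATPase subunits of the cap 9 were higher and 2 lower in 2VO, where 58.7% of all measured genes were higher. Their median was 0.05, close to the 0.04 of all genes. Under upper-quartile scaling 4 of 11 were higher, where 44.4% of all measured genes were, and the median of the 11 was -0.03. This group therefore has no settled direction. Psmd8 was 41.7 units in 2VO, against 32.8 in Sham, a log2 ratio of 0.34, and Psmd6 was 62.4 in 2VO, against 50.9 in Sham, a ratio of 0.29. Psmd1 and Psmd2 encode the large scaffolds of the base: Psmd1 was 39.7 units in 2VO, against 34.1 in Sham, while Psmd2 was 65.4 in 2VO, against 64.3 in Sham. The ubiquitin receptor Psmd4 was 58.1 units in 2VO, against 58.0 in Sham. Psmd14, the deubiquitinase that removes chains before degradation, was 27.2 in 2VO, against 26.6 in Sham. Psmd4 and Psmd14 were thus nearly equal in the 2 rats. Of the genes outside the rule that do the same work at the cap, named after their values were seen, the deubiquitinase Usp14 was 58.9 units in 2VO, against 48.6 in Sham, a ratio of 0.27, while the deubiquitinase Uchl5 and the receptor Adrm1 had ratios of 0.18 and -0.11. Psmd7, the inactive partner of Psmd14, had a ratio of -0.02, Psmd13 one of -0.01, and Psmd3, Psmd11 and Psmd12 had ratios of 0.05, 0.06 and 0.16.

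Assembly genes were divided. Psmg1 and Psmg2 encode one pair of chaperones that build the alpha ring and Psmg3 and Psmg4 another. Psmg3 was 13.0 units in 2VO, against 17.1 in Sham, a log2 ratio of -0.37, the lowest of the constitutive members. Its partner Psmg4 was 11.6 in 2VO, against 10.1 in Sham, a ratio of 0.19, so the partners differed in opposite directions. Psmg1 and Psmg2 had ratios of -0.08 and 0.09. Of the chaperones of the 19S base, Psmd10, also known as gankyrin, was 7.86 units in 2VO, against 5.99 in Sham, a ratio of 0.34. Psmd5 was 13.3 in 2VO, against 11.4 in Sham, and Psmd9 was 14.5 in 2VO, against 14.7 in Sham. The remaining regulators were Psmf1, named as an inhibitor of the core, at 21.4 units in 2VO, against 16.1 in Sham, a ratio of 0.39, the nuclear activator Psme3, at 30.9 in 2VO, against 29.7 in Sham, and the activator Psme4, at 13.1 in 2VO, against 13.3 in Sham.

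Genes around the proteasome are set beside all measured genes, of which 58.7% were higher in 2VO, with a median of 0.04. Of all genes 1.51% were at least 1.5-fold higher and 0.967% at least 1.5-fold lower. Of 15 measured partners outside the rule 11 were higher in 2VO, and 0 were 1.5-fold apart. The partners had a median of 0.14, near the 0.15 of the constitutive members. The gene nearest the partners' median was Ube3c, a ubiquitin ligase that works at the proteasome, at 23.8 units in 2VO, against 21.5 in Sham. The lowest was Sem1, a small cap subunit listed under its older symbol Shfm1, at 25.05 units in 2VO, against 36.5 in Sham. Its log2 ratio of -0.53 lay below the central 95% of all log2 ratios, which began at -0.41. Sem1 is named after its values were seen. Ubiquitin and its activating enzymes had a median of 0.08, with 4 of 6 higher; nearest was Uba6, at 3.81 in 2VO, against 3.44 in Sham. The list around Nrf1 and Nrf2, factors that raise proteasome genes when the protease is inhibited or under oxidants, had a median of 0.03 with 6 of 9 measured genes higher; nearest was Keap1, at 20.1 in 2VO, against 19.7 in Sham. Class I antigen processing genes had a median of -0.08, with 3 of 7 higher, and Calr lay nearest it, at 182 in 2VO, against 192 in Sham. Interferon signalling genes had a median of 0.01, with 6 of 11 higher and Ifngr1 nearest, at 16.1 in 2VO, against 15.9 in Sham. Under upper-quartile scaling 44.4% of all measured genes were higher, with a median of -0.03. Of the 11 interferon signalling genes 3 were then higher and their median turned to -0.06, and 2 of the 7 class I genes were higher with a median of -0.15. The Nrf1 and Nrf2 list turned to -0.04 with 4 of 9 higher, the ubiquitin list had 3 of 6 higher with a median of 0.01, and the partners 9 of 15 with 0.07. None of the measured genes in these 5 lists was 1.5-fold apart. RT1-DMb, the class II antigen processing gene described above, is in none of the lists and was.

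Cell markers also differed between the 2VO and Sham libraries. Among 13 microglial genes 11 had lower values in 2VO, where 41.3% of all measured genes did. The list had a median of -0.29 and a summed value of 278 units in 2VO, against 335.4 in Sham. Of the microglial genes Aif1 was 13.5 units in 2VO, against 23.8 in Sham, and the complement genes C1qa and C1qc had log2 ratios of -0.60 and -0.70. The microglial receptor gene P2ry12 was past 1.5-fold in the opposite direction, at 8.83 units in 2VO, against 5.49 in Sham, a log2 ratio of 0.60. The microglial markers therefore did not all share a direction. Of 7 T cell genes only Cd3e and Cd4 were measured, Cd3e at 1.199 units in 2VO, against 7.15 in Sham, and Cd4 at 1.25 in 2VO, against 3.83 in Sham; Cd3d was listed at 0 in both rats. The T cell list summed to 3.27 in 2VO, against 11.7 in Sham, a difference that rested on Cd3e and Cd4. Lck was 0.696 units in 2VO, against 0.620 in Sham, and Cd3g 0.119 in 2VO, against 0 in Sham. Cd8a and Cd2 were 0 in 2VO, against 0.0362 and 0.0201 in Sham. Higher values in 2VO were the more common direction, seen for 58.7% of all measured genes. They were seen for 8 of 10 neuronal genes, with a median of 0.28 and a sum of 2404 in 2VO, against 2068 in Sham. Of 10 oligodendrocyte genes 8 were higher, with a median of 0.31 and a sum of 4755 in 2VO, against 3822 in Sham. Astrocyte genes were split, 4 higher and 4 lower, with a median of 0.00041; under upper-quartile scaling 2 were higher, 6 lower, and the median -0.07. They had a mean of -0.10 and a sum of 1806 in 2VO, against 2082 in Sham. That sum rested on Gfap, the filament gene raised in reactive astrocytes, at 360.0 units in 2VO, against 778 in Sham, a log2 ratio of -1.11. Without Gfap the other 7 summed to 1446 in 2VO, against 1304 in Sham, so the direction of the sum turned. Of 9 hippocampal neuron genes 6 were lower, with a median of -0.21, and Wfs1 was past 1.5-fold, at 111 units in 2VO, against 169 in Sham. For the endothelium 4 of 6 genes in the tables were measured, with a median of -0.03. Of the ependymal and choroid plexus list 5 of 7 genes were measured, all higher, beside 58.7% of all measured genes, with a median of 0.54. Past 1.5-fold were Tmem212, at 2.72 units in 2VO, against 1.31 in Sham, and the choroid plexus gene Ttr, at 4.75 in 2VO, against 0.434 in Sham. The single markers are named after their values were seen, as those at least 1.5-fold apart, with the T cell list named in full. Across all measured genes 1.51% were at least 1.5-fold higher in 2VO and 0.967% at least 1.5-fold lower. The part of these cell markers in the proteasome differences was not tested. In bulk tissue fewer cells of a type and less RNA per cell cannot be told apart.

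The mouse library has no partner of its own species, and its values are not known to share a scale with those of the rats. Each member was therefore placed by its rank percentile among the 16251 symbols shared by mouse and rat tables. All 5 interferon-induced genes ranked lower in the mouse than in Sham, where 46.6% of all shared symbols did. Set beside 2VO the count was 2 of 5, where 51.7% of symbols ranked lower in the mouse. Both rat libraries are set against the same mouse. Psmb8 was at percentile 33.4 in the mouse, 38.7 in 2VO and 47.9 in Sham, and Psmb9 at 30.9 in the mouse, 43.05 in 2VO and 40.4 in Sham. Psmb10 was at 68.1 in the mouse, 67.8 in 2VO and 74.0 in Sham. Psme1 was at 83.3 in the mouse, 80.1 in 2VO and 83.8 in Sham, and Psme2 at 67.6 in the mouse, 64.0 in 2VO and 71.9 in Sham. For Psmb10, Psme1 and Psme2 the 2VO rat was thus the lowest of the 3 libraries, and for Psmb8 and Psmb9 the mouse was.

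The constitutive members held nearly the same median place in both species, while single members differed. Their median percentile over 41 genes was 91.8 in the mouse, 91.5 in 2VO and 90.4 in Sham. Of the 41, 17 ranked lower in the mouse than in Sham, where 46.6% of all shared symbols did. Against 2VO the count was 23 of 41, where 51.7% of symbols ranked lower in the mouse. The constitutive beta subunits stayed within a narrow band, from 91.2 to 96.6 in the mouse, from 92.7 to 96.6 in 2VO and from 90.5 to 97.1 in Sham. Over the constitutive members the gaps in percentile, mouse minus Sham, ran from -25.8 to 14.1. The largest were in assembly genes and regulators. Psmg1 was 6.45 units at percentile 56.2 in the mouse, 21.4 units at 80.4 in 2VO and 22.7 units at 81.9 in Sham. Psmg3 was at 55.6 in the mouse, 69.6 in 2VO and 76.6 in Sham, and Psmf1 at 58.2 in the mouse, 80.4 in 2VO and 75.3 in Sham. Psmd5 had the opposite order, at percentile 81.2 in the mouse, 70.0 in 2VO and 67.1 in Sham. Psmd9 was at 57.5 in the mouse, 72.1 in 2VO and 73.3 in Sham. Annotation and assigned length differ between the species' tables, and their part in these gaps was not tested.

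**Figure D5:**
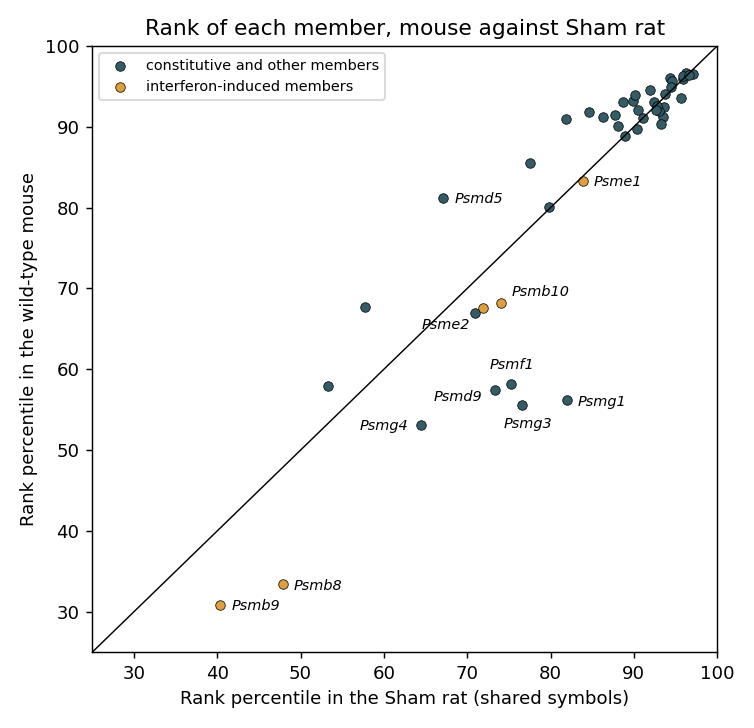
Rank percentile of each of the 46 measured members in the wild-type mouse against the Sham rat, over the 16251 shared symbols; the line marks equal rank. Most constitutive members (dark) cluster at the upper right on the line, the interferon-induced members (orange) lie below it, and Psmg1 at 56.2 and 81.9 lies furthest below.

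Proteasome genes have many processed copies in the genome. The RefSeq table for GRCr8 holds 46 proteasome pseudogenes, and 0 of them were found in the rat tables by symbol or gene number. The sources do not say how the submitters assigned reads shared between a gene and its copies, so small differences of single members carry that reservation. A coding copy of Psmb6, Psmb6l1, was listed under its model identifier at 1.82 units in 2VO, against 1.61 in Sham. In the mouse a copy of Psme2, Psme2b, was listed at 2.43 units, and Psme2 itself at 10.7.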

How the data were processed

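Hippocampal RNA extracted with TRIzol went into TruSeq v2 libraries, per the labels' protocols. HISAT2 2.1.0, fastp 0.21.0 and DESeq2 were used per the submitters' processing notes, which also name the mouse build GRCm39 and the rat build mRatBN7.2 but give no roles. The deposited tables hold 1 normalized expression signal per gene, per the file headers named for its group; no source used here gives the quantifier, the unit or the annotation. Depth is therefore unknown, and intervals and detection limits are not given.

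The 3 libraries were grouped by their titles. Ratios of 2VO to Sham were computed on the values as deposited, with 1 unit added, over genes whose rat values average 1 unit or more. No test was run. Members and gene lists were chosen with earlier results of these data known. Every member is accounted for; of the 5 lists around the proteasome the text names the gene nearest each list's median (none was 1.5-fold apart), of the cell marker lists the genes at least 1.5-fold apart, and other genes as chosen after their values were seen. Simulated data were used to check the calculation. Their planted differences were larger than those of the members, and genes as low as Psmb8 and Psmb9 were left out. Promoters came from RefSeq on GRCr8, which differs from the submitters' build. Python 3.11.15, pandas 2.3.3, numpy 2.4.6 and statsmodels 0.14.6 were used. The alternatives were 2 other scalings, other amounts added before the log, other filters and centring on a lowess trend.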

Additional observations from a re-analysis of the deposited data

How the results depend on the processing

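Across the alternatives the constitutive median stayed between 0.08 and 0.15, the interferon-induced median between -0.38 and -0.25 and the gap between them between -0.48 and -0.40. A minimum mean of 5 units left 3 interferon-induced genes, without Psmb8 and Psmb9. The interferon-induced median was the ratio of Psmb10, -0.31, both with and without that filter, so its staying equal there says little. The count of members at least 1.5-fold lower in 2VO was 1, Psmb8, and became 0 with 4 units added before the log and 0 under a minimum mean of 5 units, a filter that leaves Psmb8 out. The log2 difference of Psmb8 over Psmb5 was -0.45, and -0.59 with 0.25, -0.19 with 4 and -0.65 with 0 units added. The count of members at least 1.5-fold higher was 0 in every setting run. The 1.2-fold count of higher members was 10, or 21.7%, beside 12.6% of all genes. With upper-quartile scaling it was 5, or 10.9%, beside 7.92%. It was 6, or 13.0%, with either median-of-ratios scaling, beside 9.60%, or lowess centring, beside 9.50%. That of lower members was 4, or 8.70%, beside 6.81% of all genes. Across the alternatives it lay between 3 and 6, or 6.52% and 13.0%, while the share of all genes lay between 3.60% and 10.9%. No paired analysis was possible because each group holds 1 library, and for the same reason leaving out a library was not run. Values of a few units, such as those of Psmb8 and Psmb9, have an unknown counting error.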
